A study of Mus musculus with 9 samples.

Results

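The 10 genes described here encode lysine acetyltransferases, the enzymes that place acetyl groups on histones and on many other proteins. They are Ep300, Crebbp, Kat2a, Kat2b, Kat5, Kat6a, Kat6b, Kat7, Kat8 and Hat1, taken as a list from the 35288 gene identifiers of the count table and matched from Ensembl mouse identifiers to symbols. The list was chosen with earlier results of these data known, so counts over it are description only. All 10 were found, and all 10 passed the filter on low counts, which left 13697 genes. Acetylation of histone tails loosens nucleosomes and provides docking sites for bromodomain proteins, and histone deacetylases remove the mark again. Most of the enzymes work inside large complexes. p300 (Ep300) and CBP (Crebbp) are recruited to enhancers by transcription factors, GCN5 (Kat2a) or PCAF (Kat2b) sits in the SAGA and ATAC coactivator complexes, TIP60 (Kat5) in the TIP60/p400 complex, and MOZ (Kat6a), MORF (Kat6b) and HBO1 (Kat7) in complexes built on BRPF and JADE scaffolds. MOF (Kat8) acetylates histone H4 in the MSL and NSL complexes, and HAT1 (Hat1) acetylates newly made histone H4 before it is deposited on DNA.

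The data are bulk RNA-seq of T15, a murine cell line from a Smarcb1-negative model of peripheral T-cell lymphoma, so that the control and SAHA groups lack the SWI/SNF subunit Smarcb1. The 9 libraries form 3 groups of 3 biological replicates: control cells, cells given SAHA at 1 µM over 72 h, and Smarcb1-RE cells, in which a lentiviral pInducer20 construct carrying Smarcb1 cDNA was induced with Dox at 0.5 µg/µl for 72 h after G418 selection. SAHA (vorinostat) inhibits a broad range of histone deacetylases, and the comparisons ask how the transcripts of the opposing enzymes stood after deacetylase inhibition and after return of Smarcb1. The study's text calls the controls untreated while the labels name both a vehicle and a control plasmid, so effects of transduction, selection and Dox cannot be told apart from those of Smarcb1. Library totals lay between 20900477 and 24941494 estimated counts. Smarcb1 itself, the check of the labels, had 2, 5 and 8 counts in control, against 7, 13 and 3 under SAHA. After re-expression it had 151, 147 and 142, a log2 difference of 4.89 from control (SE 0.36).

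Levels are given as CPM, the counts of a gene relative to its library's total after TMM scaling, and a gene was called when its adjusted p from edgeR's quasi-likelihood test across all 13697 tested genes was under 0.05. Control replicate 1 stood apart from its group: its chi-square per gene against the other controls was 13.5 and 15.1, where the 7 other replicate pairs gave 2.07 to 4.70. In this library transcripts over 7000 bases were lower than in the other controls (median log2 difference -0.14 over 1142 genes) and those up to 2000 bases were higher (0.15 over 2544 genes). Among the acetyltransferase genes, Ep300 (-0.41), Kat6a (-0.41) and Kat6b (-0.33) were the farthest below the other controls. Transcript length also moved with the groups: the median log2 fold change of the 1142 genes over 7000 bases was 0.13 in SAHA and 0.37 in Smarcb1-RE against control, and 0.10 and 0.31 without control replicate 1. Ep300, Crebbp, Kat6a and Kat6b belong to this length class, so their values are also given from a fit with the trend against transcript length removed from each library, which was chosen after seeing the data. Of 13 T-cell markers, Cd3d, Cd3e, Cd3g, Cd247, Cd8a, Cd8b1, Lck, Zap70 and Ptprc were present, while Cd2, Cd4, Cd5 and Thy1 stayed at or near 0. Summed CPM of the T-cell list was 3936 to 4060 in control, 4645 to 4695 in SAHA and 4921 to 5029 in Smarcb1-RE. The B-cell list summed to at most 1.86 CPM in control and SAHA and to 7.25 to 7.97 in Smarcb1-RE, the myeloid and erythroid lists never passed 1.37 CPM, and 113 to 199 CPM of the stromal list came mostly from Pecam1 and, in Smarcb1-RE, Pdgfra at 65.8 to 68.0 CPM. The mitochondrial share of counts was 3.02% to 3.76% over the control and SAHA libraries, and 4.79% to 5.08% in Smarcb1-RE. The part of these markers, of mitochondrial share and of transcript length in the results was not tested beyond the fits named.

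In GENCODE M21 (GRCm38) the genes lie apart from each other. The enhancer coactivators are Ep300 (ENSMUSG00000055024) at chr15:81585351-81652077 on the + strand and Crebbp (ENSMUSG00000022521) at chr16:4081328-4213997 on the - strand. The SAGA and ATAC enzymes are Kat2a (ENSMUSG00000020918) at chr11:100704746-100712465 on the - strand and Kat2b (ENSMUSG00000000708) at chr17:53566861-53672720 on the + strand. Of the MYST family, Kat5 (ENSMUSG00000024926) at chr19:5603014-5610237 on the - strand and Kat8 (ENSMUSG00000030801) at chr7:127912516-127925837 on the + strand have short transcripts. The others of that family are Kat6a (ENSMUSG00000031540) at chr8:22859535-22943259 on the + strand, Kat6b (ENSMUSG00000021767) at chr14:21481434-21672478 on the + strand and Kat7 (ENSMUSG00000038909) at chr11:95274259-95310246 on the - strand. The last gene is Hat1 (ENSMUSG00000027018) at chr2:71388958-71441622 on the + strand.

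RefSeq promoter windows, reaching from 250 bases before to 50 bases after a transcription start, were found for 9 of the 10 genes (13 windows; none for Kat6a). They were searched on both strands for 6 motifs, and the share of all 32851 RefSeq windows that hold each is given as background. The cyclic AMP response element, bound by CREB, was searched as TGACGTCA and stood in 1.79% of the windows. The letters CCGGAAG, for ETS factors, stood in 8.86% of them. The GC box of Sp factors, GGGCGG, was the most common at 35.7%. The E-box CACGTG stood in 7.15% of the windows. For NRF1 the core letters TGCGCA were used, which 7.76% of the windows held. For YY1 the letters AAGATGG were used, which 6.34% held. The windows of the 5 genes on which the comparisons turn are shown 5′ to 3′ on the strand of the gene (GRCm38.p6), with motif matches in capitals. They are shown because Kat2a, Hat1 and Kat6b had calls in both treated groups that held under all alternatives, and Kat2b and Crebbp had such calls between the treated groups.
Kat2a (chr11:100712418-100712717, - strand): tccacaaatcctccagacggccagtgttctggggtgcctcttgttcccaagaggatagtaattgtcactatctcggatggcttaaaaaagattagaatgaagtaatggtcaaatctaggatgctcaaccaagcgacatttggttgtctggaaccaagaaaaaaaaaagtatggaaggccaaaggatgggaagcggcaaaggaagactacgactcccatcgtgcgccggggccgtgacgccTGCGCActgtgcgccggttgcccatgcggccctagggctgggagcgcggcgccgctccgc
Hat1 (chr2:71389010-71389309, + strand): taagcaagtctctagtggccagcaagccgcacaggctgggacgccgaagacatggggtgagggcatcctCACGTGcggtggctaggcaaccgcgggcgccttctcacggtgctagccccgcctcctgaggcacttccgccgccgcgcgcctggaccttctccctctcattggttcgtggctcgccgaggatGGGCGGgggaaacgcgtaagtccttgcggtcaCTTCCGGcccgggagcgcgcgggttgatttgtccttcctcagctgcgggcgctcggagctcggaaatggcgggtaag
Kat2b (chr17:53566721-53567020, + strand): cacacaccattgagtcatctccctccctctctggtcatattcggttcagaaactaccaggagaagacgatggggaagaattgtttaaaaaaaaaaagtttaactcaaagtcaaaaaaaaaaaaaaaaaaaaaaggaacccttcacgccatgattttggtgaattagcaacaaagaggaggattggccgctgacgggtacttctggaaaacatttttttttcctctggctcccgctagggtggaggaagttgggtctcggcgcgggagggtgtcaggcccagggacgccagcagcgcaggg
Crebbp (chr16:4213355-4213654, - strand): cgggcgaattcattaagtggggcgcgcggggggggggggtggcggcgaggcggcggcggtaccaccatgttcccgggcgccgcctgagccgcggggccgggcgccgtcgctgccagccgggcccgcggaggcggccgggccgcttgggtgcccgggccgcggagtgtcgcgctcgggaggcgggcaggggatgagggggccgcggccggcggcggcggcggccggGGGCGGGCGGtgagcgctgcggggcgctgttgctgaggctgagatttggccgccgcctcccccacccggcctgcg
Kat6b (chr14:21499520-21499819, + strand): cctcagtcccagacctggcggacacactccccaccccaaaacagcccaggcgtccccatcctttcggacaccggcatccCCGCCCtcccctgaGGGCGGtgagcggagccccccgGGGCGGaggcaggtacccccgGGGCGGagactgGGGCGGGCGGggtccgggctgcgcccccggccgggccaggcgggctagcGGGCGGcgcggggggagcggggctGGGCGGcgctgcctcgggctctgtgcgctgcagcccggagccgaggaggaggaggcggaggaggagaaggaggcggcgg
The windows differed in base composition, from 47.0% G and C with 11 CpG in Kat2b to 82.0% with 49 CpG in Crebbp, where the median window had 52.7% and 7 CpG. Kat6b held 8 GC boxes and Crebbp 2 overlapping ones, Kat2a a single NRF1 match 10 bases before the start, and Hat1 an E-box, a GC box and an ETS motif. The Kat2b window matched none of the 6 motifs. No window of the 9 genes held the cyclic AMP response element or the YY1 letters. These matches describe the letters of the window only.

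All 10 genes were transcribed in each library, with rounded counts between 451 (Kat8, SAHA replicate 2) and 7759 (Ep300, SAHA replicate 3). Per kilobase of exon sequence, the control cells had most of Kat2a (40.7 ± 1.28 CPM per kb, SD, n = 3) and Hat1 (40.7 ± 2.13), whose libraries overlapped. Kat7 (22.3 ± 1.71), Kat2b (20.87 ± 0.16), Ep300 (18.3 ± 3.12) and Kat6a (16 ± 2.47) followed, each overlapping its neighbour. Kat5 (10.1 ± 0.72) stood apart from both neighbours. Kat8 (8.32 ± 0.31) and Kat6b (7.59 ± 0.95) overlapped, and Crebbp (4.36 ± 0.37) was the lowest in all 3 groups. The order depends on what counts as the length of a gene: with the longest transcript in place of the union of exons, Hat1 led in control (61.8 against 43.3 CPM per kb for Kat2a) and Kat6b moved from rank 9 to rank 6.

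Per kilobase of exon sequence, Kat2a stood level with Hat1 at the top in control and below it in both treated groups. With the longest transcript as length, Hat1 led in all 3 groups, and Kat2a was at rank 2 in control, 4 in SAHA and 6 in Smarcb1-RE. The orders that follow use exon sequence. In SAHA the order began with Hat1 (33.3 ± 0.53 CPM per kb), Ep300 (22.2 ± 1.01) and Kat2a (21.6 ± 0.91), the last pair overlapping. In Smarcb1-RE it began with Hat1 (29.1 ± 0.25), Ep300 (21.7 ± 0.19) and Kat2b (20.5 ± 0.20), ahead of Kat2a (18.6 ± 1.26). Summed over the 10 genes, the level per kilobase was 182 to 193 in the control libraries, 152 to 159 in SAHA and 156 to 160 in Smarcb1-RE, so that the treated libraries lay below all controls. The sum of CPM without division by length overlapped between groups (1038 to 1204 in control, 1055 to 1098 in SAHA, 1131 to 1147 in Smarcb1-RE). In bulk RNA, fewer cells of a kind and less RNA per cell cannot be told apart.

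**Figure D1:**
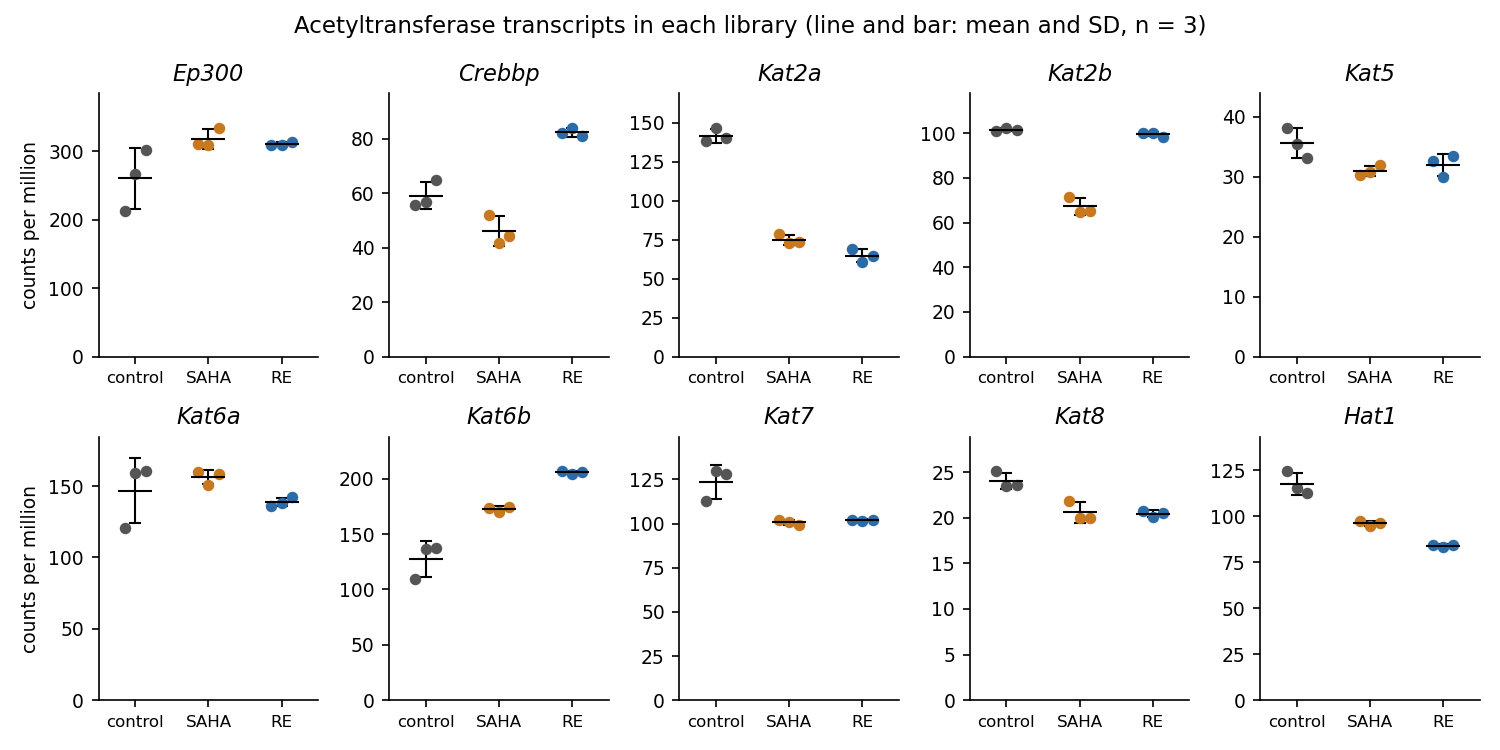
CPM (TMM scaled) of each acetyltransferase gene in the 9 libraries, 1 panel a gene, with axes from 0; points are libraries, the line and bar are mean and SD (n = 3), and RE stands for Smarcb1-RE. The Kat2a libraries lie at 138 to 147 CPM in control, at 72.7 to 78.6 under SAHA and at 60.6 to 69.3 in Smarcb1-RE, while Kat2b had a mean of 67.2 CPM in SAHA beside 102 in control and 99.6 in Smarcb1-RE.

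After SAHA, 7 of the 10 genes were lower than in control, 2 were higher and 1 was not called. Among all tested genes 34.3% were lower and 32.6% higher. The median log2 fold change of the 10 genes was -0.26, beside 0.00 for all tested genes. After Smarcb1 re-expression, 5 were lower, 3 higher and 2 not called, where 38.6% of all genes were lower and 39.2% higher, with a median of -0.12 beside 0.01. The counts after re-expression were near these shares. Between the treated groups, 3 were higher and 2 lower in Smarcb1-RE, against a background of 37.7% and 36.8%. Libraries of 2 groups that do not overlap were common over all tested genes. In SAHA against control, 33.78% of all tested genes lay wholly higher and 34.91% wholly lower. In Smarcb1-RE the shares were 40.42% and 39.07% against control, and 40.7% and 39.25% against SAHA. Statements below that the libraries of a gene did not overlap are read against these shares. Both comparisons with control share the same control libraries. The changes were of moderate size: the median absolute log2 fold change of all genes was 0.37 in SAHA and 0.53 in Smarcb1-RE, and among the 10 genes this was exceeded in SAHA by Kat2a, Kat2b and Kat6b and in Smarcb1-RE by Kat2a and Kat6b.

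Kat2a, which encodes the SAGA and ATAC acetyltransferase GCN5, had the largest change of the 10 in both comparisons with control. Its CPM was 138, 147 and 140 in control, 78.6, 72.7 and 73.7 under SAHA, and after re-expression 69.3, 60.6 and 64.5. The 3 groups did not overlap, as was common over all tested genes, and the Smarcb1-RE libraries were the lowest. Kat2a fell by 0.92 on the log2 scale in SAHA (SE 0.05, adjusted p = 1.78e-08) and by 1.13 in Smarcb1-RE (SE 0.05, adjusted p = 9.90e-10), and no alternative ended either call. In SAHA 3.50% and in Smarcb1-RE 4.95% of all tested genes had a lower log2 fold change. The further difference between Smarcb1-RE and SAHA was -0.21 (SE 0.05, adjusted p = 0.00354). It depended on scaling: with upper-quartile factors it was -0.11 (adjusted p = 0.0792), and with library totals -0.05 (adjusted p = 0.393).

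Kat2b, which encodes the paralog PCAF, was lower in SAHA and near the control level in Smarcb1-RE. Its CPM was 101, 102 and 102 in control, 71.4, 64.8 and 65.4 under SAHA, and after re-expression 100, 100 and 98.5. All SAHA libraries lay below both other groups, and the Smarcb1-RE libraries lay just under the lowest control. Kat2b fell by 0.60 in SAHA (SE 0.04, adjusted p = 1.29e-07), and was 0.57 higher in Smarcb1-RE than in SAHA (SE 0.04, adjusted p = 9.89e-08). Against control the Smarcb1-RE difference was -0.03 (SE 0.04, adjusted p = 0.55), and its sign and call changed with the setting: 0.15 (adjusted p = 0.00538) with upper-quartile factors, 0.13 (adjusted p = 0.0152) with library totals and -0.13 (adjusted p = 0.0068) with the length trend removed. The pseudogene Kat2b-ps, which matches 2479 bases of Kat2b at 95.1% identity, had 0 to 3.27 counts.

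The ratio of Kat2a to Kat2b within a library, which does not depend on scaling, was highest in the control libraries. Kat2a had 1.37, 1.43 and 1.38 times the counts of Kat2b in control, 1.10, 1.12 and 1.13 times under SAHA, and 0.69, 0.61 and 0.65 times after re-expression. In the Smarcb1-RE libraries the order of the pair was inverted. The log2 ratio differed from control by -0.32 in SAHA and by -1.10 in Smarcb1-RE, and by -0.78 between Smarcb1-RE and SAHA. The libraries did not overlap in any of these comparisons (exact permutation p = 0.1 for each, two-sided, the smallest that 3 against 3 libraries allow; 0.15 after adjustment over 12 ratio tests).

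p300 and CBP, the enhancer coactivators, took opposite directions in SAHA. Crebbp had 55.7, 56.8 and 64.8 CPM in control, 52.2, 41.8 and 44.3 under SAHA, and after re-expression 82.0, 84.0 and 80.9. The 3 groups did not overlap, with SAHA at the bottom and Smarcb1-RE at the top. Crebbp fell by 0.36 in SAHA (SE 0.08, adjusted p = 0.00123), a call that held under all 20 alternatives. In Smarcb1-RE it was 0.48 higher than in control (SE 0.07, adjusted p = 6.81e-05). With the length trend removed this difference was -0.06 (adjusted p = 0.347), and the median of the length class of its 10820-base transcript was 0.37 in the same comparison. The difference between Smarcb1-RE and SAHA, 0.84 (SE 0.08, adjusted p = 5.09e-07), was the largest of the 10 genes in that comparison and was still 0.49 (adjusted p = 4.84e-06) with the length trend removed.

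Ep300 had 213, 266 and 302 CPM in control, 310, 309 and 334 under SAHA, and after re-expression 309, 309 and 314. The treated libraries lay above the controls, control replicate 3 being close to them and control replicate 1 far below. The log2 difference from control was 0.29 in SAHA (SE 0.09, adjusted p = 0.0148) and 0.25 in Smarcb1-RE (SE 0.09, adjusted p = 0.0231), and 0.16 and 0.12 without control replicate 1. Neither call was firm: the first was lost without SAHA replicate 3 (adjusted p = 0.0615) and with the length trend removed (0.13, adjusted p = 0.0945). The second was lost in 5 of 9 fits that left out a library, the losses coming without control replicate 2, without SAHA replicate 1 (adjusted p = 0.0513) and without each Smarcb1-RE replicate in turn (adjusted p up to 0.0674), and with DESeq2 (adjusted p = 0.0573), and it turned to -0.18 (adjusted p = 0.0202) with the length trend removed. Ep300 did not pass the test between Smarcb1-RE and SAHA (-0.03, SE 0.09, adjusted p = 0.756).

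Within the libraries, Ep300 had 3.83, 4.69 and 4.66 times the counts of Crebbp in control, 5.94, 7.39 and 7.55 times under SAHA, and 3.77, 3.68 and 3.88 times after re-expression. All SAHA ratios were above all others. The log2 ratio was 0.66 higher in SAHA than in control and 0.88 lower in Smarcb1-RE than in SAHA (exact permutation p = 0.1 for each, two-sided). Smarcb1-RE and control overlapped (difference -0.21, exact permutation p = 0.2, two-sided), control replicate 1 lying among the Smarcb1-RE libraries.

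Kat6b, which encodes MORF, was the gene that rose in both treated groups under all 20 alternatives. It had 109, 136 and 138 CPM in control, 174, 170 and 174 under SAHA, and after re-expression 207, 205 and 207. The 3 groups did not overlap and followed this order. Kat6b was 0.44 higher in SAHA (SE 0.07, adjusted p = 0.000115) and 0.69 higher in Smarcb1-RE (SE 0.07, adjusted p = 1.16e-06) than in control. Removing the length trend left 0.32 (adjusted p = 5.25e-05) and 0.40 (adjusted p = 4.25e-06), and leaving out control replicate 1 left 0.33 and 0.58. The difference of 0.25 between Smarcb1-RE and SAHA (adjusted p = 0.00476) was not called with the length trend removed (0.08, adjusted p = 0.139). The pseudogene Kat6b-ps2, which matches 1603 bases at 91.2% identity, had 0 counts in all libraries.

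Its paralog Kat6a, which encodes MOZ, was not called in any of the 3 comparisons. Kat6a had 121, 160 and 160 CPM in control, 160, 151 and 159 under SAHA, and after re-expression 136, 138 and 142. Control replicate 1 was the lowest of the 9 libraries and the other controls stood with the highest. The log2 difference from control was 0.09 in SAHA (SE 0.08, adjusted p = 0.354) and -0.08 in Smarcb1-RE (SE 0.08, adjusted p = 0.396). Without control replicate 1 the SAHA value was -0.03 and the Smarcb1-RE value -0.21 (adjusted p = 0.000142), and with the length trend removed -0.06 (adjusted p = 0.419) and -0.48 (adjusted p = 8.79e-06). Kat6a had 1.11, 1.17 and 1.17 times the counts of Kat6b in control, 0.92, 0.89 and 0.91 times under SAHA, and 0.66, 0.67 and 0.69 times after re-expression. The log2 ratio was 0.34 lower in SAHA and 0.77 lower in Smarcb1-RE than in control, with no overlap of libraries (differences -0.34 and -0.77, exact permutation p = 0.1 for each, two-sided).

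**Figure D2:**
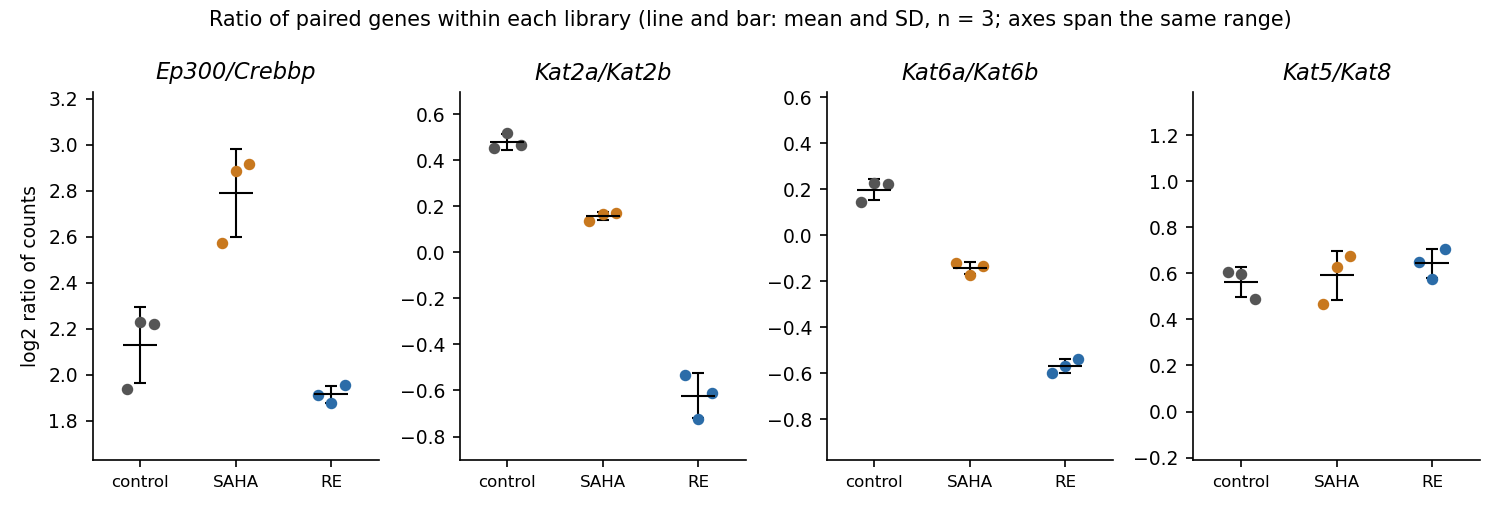
Log2 ratio of counts of paired acetyltransferase genes in each library, 1 panel a pair, all axes spanning the same range; points are libraries, the line and bar are mean and SD (n = 3), and RE stands for Smarcb1-RE. Kat2a/Kat2b and Kat6a/Kat6b step down from control to SAHA to Smarcb1-RE, Ep300/Crebbp is high in SAHA, and Kat5/Kat8 overlaps in all groups.

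Hat1, which acetylates newly made histone H4, was lower in both treated groups and lowest in Smarcb1-RE. It had 124, 115 and 112 CPM in control, 97.4, 94.4 and 96.2 under SAHA, and after re-expression 84.3, 83.2 and 84.5. The groups did not overlap. Hat1 fell by 0.29 in SAHA (SE 0.04, adjusted p = 6.15e-05) and by 0.48 in Smarcb1-RE (SE 0.04, adjusted p = 3.89e-07), and both calls held under all 20 alternatives. The difference between Smarcb1-RE and SAHA (-0.19, SE 0.04, adjusted p = 0.00149) was not called with upper-quartile factors (-0.09) or library totals (-0.03).

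Kat7, Kat8 and Kat5, 3 enzymes of the MYST family, were modestly lower in SAHA. In Smarcb1-RE Kat7 and Kat8 were lower too, while the Kat5 libraries overlapped control. Kat7 had 113, 130 and 128 CPM in control, 102, 101 and 99.2 under SAHA, and after re-expression 102, 102 and 102. Kat8 had 25.1, 23.5 and 23.6 CPM in control, 21.9, 19.9 and 19.9 under SAHA, and after re-expression 20.8, 20.1 and 20.5. For both genes every treated library lay below every control. Kat7 fell by 0.29 in SAHA and by 0.28 in Smarcb1-RE (SE 0.05 for both, adjusted p = 0.000219 and 0.000261), and Kat8 fell by 0.22 and by 0.23 (SE 0.06 for both, adjusted p = 0.00414 and 0.00251). Neither passed the test between Smarcb1-RE and SAHA (0.02, SE 0.05, and -0.01, SE 0.06). The Smarcb1-RE calls of both were lost with upper-quartile factors and with library totals, which shift the median of all genes in that comparison from 0.01 to 0.19 and 0.17.

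Kat5, the TIP60 gene, had 38.1, 35.5 and 33.1 CPM in control, 30.3, 30.8 and 31.9 under SAHA, and after re-expression 32.6, 29.9 and 33.5. The SAHA libraries lay below the controls, and the Smarcb1-RE libraries overlapped them. The log2 difference from control was -0.20 in SAHA (SE 0.06, adjusted p = 0.0121) and -0.15 in Smarcb1-RE (SE 0.06, adjusted p = 0.0369). The SAHA call was lost with upper-quartile factors (-0.12, adjusted p = 0.0994). The Smarcb1-RE call held under 11 of 20 alternatives. It was lost with DESeq2 (adjusted p = 0.0599), with at least 10 counts required in every library (adjusted p = 0.160), with counts thinned to the smallest library (adjusted p = 0.114) and with the GC trend removed (adjusted p = 0.113). It was also lost without control replicate 1 (-0.11, adjusted p = 0.102), without Smarcb1-RE replicate 2 (-0.11, adjusted p = 0.152) and with the length trend removed (-0.07, adjusted p = 0.218), and the sign turned with library totals (0.01) and upper-quartile factors (0.03). Kat5 shares 426 exon bases with Rnaseh2c on the opposite strand (311 to 898 counts), and whether counting used strand is not given in the sources used here. The Kat5/Kat8 ratio overlapped between all groups, with log2 differences from 0.03 to 0.08 (exact permutation p from 0.3 to 0.6, two-sided).

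**Figure D3:**
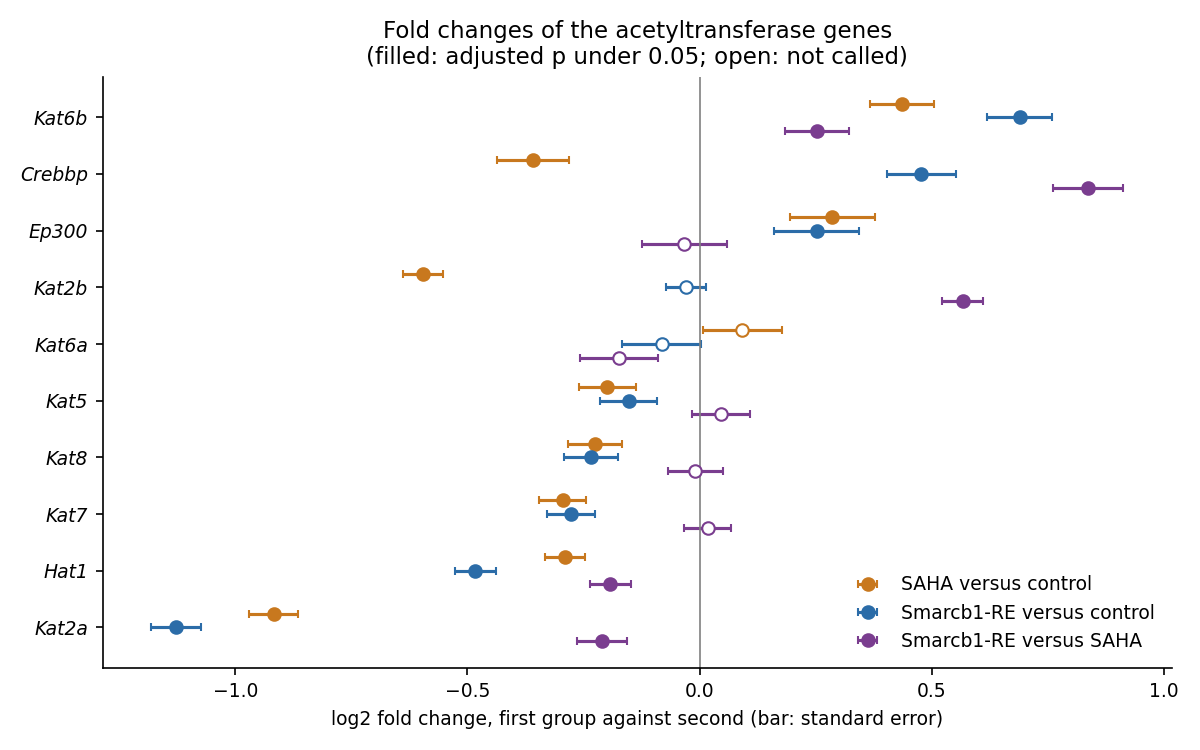
Log2 fold change of each acetyltransferase gene (points) with its standard error (bars) in the 3 comparisons, ordered by the value in Smarcb1-RE against control; filled points have an adjusted p under 0.05. Kat2a lies farthest to the left in both comparisons with control, Kat6b farthest to the right, and Crebbp and Kat2b are separated between SAHA and Smarcb1-RE.

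Read by length, the 4 genes with the longest transcripts (7699 to 10820 bases) held all values above 0 among the comparisons with control, and the 6 shorter genes all lay below 0. In Smarcb1-RE, Crebbp and Kat6b were above the median of the genes over 7000 bases (44.3% and 35.2% of that class were higher), Ep300 was below it (56.8% higher) and Kat6a well below it (76.6% higher). Kat2a was among the lowest of its own class of 2000 to 4000 bases, in which 4.92% of 5147 genes were lower. With the length trend removed, Smarcb1-RE had 1 of the 10 genes higher (Kat6b) and 7 lower (Kat2a, Kat6a, Hat1, Kat7, Ep300, Kat2b and Kat8), and SAHA 1 higher (Kat6b) and 7 lower. This fit was chosen after seeing the data, and the share of all genes that it called is not given. The shares above belong to the main fit, so these counts are not read as particular to the 10 genes.

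**Figure D4:**
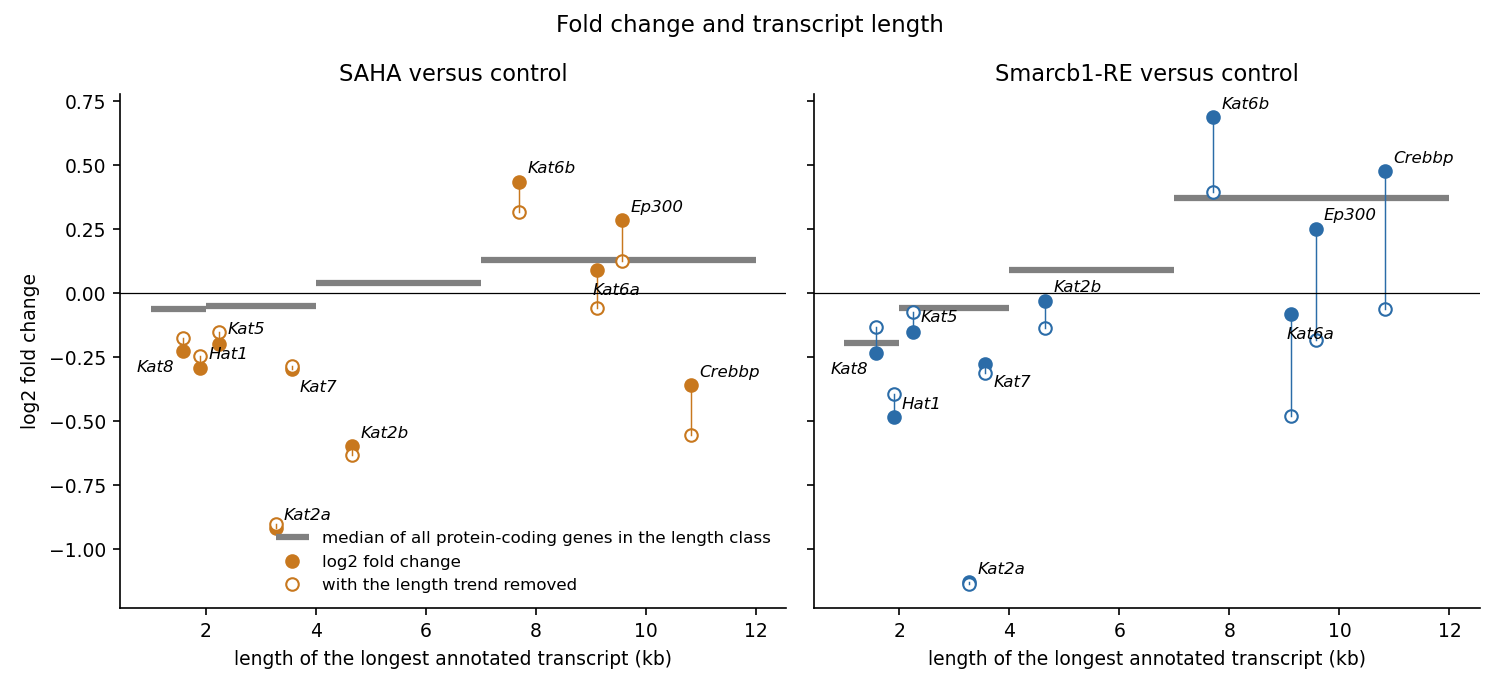
Log2 fold change against control of each acetyltransferase gene plotted by the length of its longest annotated transcript (kb), for SAHA and Smarcb1-RE; filled points are the reported values, open points those with the length trend removed, and grey bars the median of all protein-coding genes of the length class. Crebbp moves from 0.48 to -0.06 in Smarcb1-RE when the trend is removed, while Kat2a stays at -1.13 and -1.14.

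Across the 9 libraries the members moved together in part. The log2 CPM of Kat2a had a Pearson correlation of 0.95 with Hat1, 0.92 with Kat8 and 0.91 with Kat7, and Kat6b was opposed to Hat1 (-0.99) and Kat2a (-0.92). Among 11318 genes whose log2 CPM averaged 1 or more, the 5 most like Kat2a were Pwp1 (0.996), Mns1 (0.996), Wbp1l (0.995), Ywhah (0.994) and Lig1 (0.994), which encodes DNA ligase I. These values describe 9 libraries that share 3 group means.

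The partners of the enzymes were read from lists of 117 genes, of which 115 were tested. These lists were also chosen with earlier results of these data known. In SAHA 31 were higher and 59 lower (median -0.13), where 32.6% and 34.3% of all tested genes were. In Smarcb1-RE 34 were higher and 57 lower (median -0.14), where the shares were 39.2% and 38.6%. Without control replicate 1 the SAHA counts were 31 and 67 and the Smarcb1-RE counts 32 and 61. Scaling by library totals left 37 lower in Smarcb1-RE.

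The SAGA and ATAC partners of Kat2a and Kat2b were mostly lower, with 12 of 20 lower and 2 higher in SAHA (34.3% and 32.6% of all tested genes). In Smarcb1-RE 12 were lower and 5 higher (38.6% and 39.2%). Taf5l, a SAGA subunit, was lower in both (-0.79, SE 0.04, and -0.63, SE 0.04), as was the adaptor Tada3 (-0.59, SE 0.06, and -0.61, SE 0.06). The adaptor Tada2b was also lower in both (-0.85, SE 0.10, and -0.55, SE 0.09). Usp22, the deubiquitinase of SAGA, was 0.63 higher in SAHA (SE 0.06) and -0.08 (SE 0.06, adjusted p = 0.241) in Smarcb1-RE, and Supt20, a SAGA scaffold subunit, rose from 195 to 391 CPM in Smarcb1-RE (log2 1.01, SE 0.05).

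Of 16 TIP60 partners, 13 were lower and 2 higher in SAHA (median -0.50), against 7 lower and 5 higher in Smarcb1-RE (median -0.11). Over all tested genes, 34.3% were lower and 32.6% higher in SAHA, and 38.6% and 39.2% in Smarcb1-RE. The Smarcb1-RE counts were near these shares. Ruvbl1 and Ruvbl2, the ATPases that TIP60 shares with other remodelling complexes, fell in both groups: Ruvbl1 from 133 CPM to 62.1 under SAHA and 49.6 after re-expression, and Ruvbl2 from 160 to 115 and 67.3. Epc1 and Meaf6 fell in SAHA (-1.14, SE 0.07, and -0.89, SE 0.05). In Smarcb1-RE Epc1 was at -0.02 (SE 0.07, adjusted p = 0.829) and Meaf6 was 0.46 higher (SE 0.05). Both differed between the treated groups, being 1.12 and 1.34 higher in Smarcb1-RE than in SAHA (SE 0.07 and 0.05). Mbtd1 was higher in both (0.63 and 0.68, SE 0.05 for each).

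Of the scaffolds and subunits around MOZ, MORF and HBO1, 3 of 8 were higher and 3 lower in SAHA (32.6% and 34.3% of all tested genes). In Smarcb1-RE 2 were higher and 4 lower (39.2% and 38.6%). The SAHA counts were near the shares over all genes. Meaf6 was counted with the TIP60 partners above and is not among these 8. The JADE scaffolds of the HBO1 complex changed in opposite directions in Smarcb1-RE: Jade1 rose from 27.4 to 55.2 CPM (log2 1.01, SE 0.06) and Jade2 fell from 135 to 68.6 CPM (log2 -0.98, SE 0.07). In SAHA Jade1 was 0.24 higher (SE 0.06) and Jade2 was not called (0.13, SE 0.07, adjusted p = 0.112). Ing4 was higher in both groups (0.33 and 0.90, SE 0.06 and 0.05). Of the MSL and NSL partners of Kat8, 6 of 10 were lower and 2 higher in SAHA (34.3% and 32.6% of all tested genes), and 5 were lower and 3 higher in Smarcb1-RE, near the shares of 38.6% and 39.2% over all genes. Msl1 (-0.50 and -0.37) and Mcrs1 (-0.48 and -0.67) were lower in both. Ogt, which adds O-GlcNAc and is an NSL subunit, rose from 359 CPM to 472 under SAHA and 671 after re-expression.

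Of the 5 histone chaperones and partners of HAT1, 4 were lower and 0 higher in Smarcb1-RE (38.6% and 39.2% of all tested genes), and 1 was lower and 1 higher in SAHA (34.3% and 32.6%). Rbbp7, the binding subunit of HAT1, fell from 702 to 355 CPM in Smarcb1-RE (log2 -0.98, SE 0.04), and was at 662 CPM in SAHA (-0.08, SE 0.04, adjusted p = 0.0574). Asf1b fell by 0.56 in Smarcb1-RE (SE 0.04) and was the partner called higher in SAHA (0.10, SE 0.04, adjusted p = 0.0269). Nasp was lower in SAHA (-0.62, SE 0.05) and, by less, in Smarcb1-RE (-0.20, SE 0.05). Among the tested p300 and CBP partners, 4 of 12 were higher and 6 lower in SAHA (32.6% and 34.3% of all tested genes), and 3 higher and 5 lower in Smarcb1-RE (39.2% and 38.6%). The count higher in SAHA and the count lower in Smarcb1-RE were near these shares. Hif1a, a transcription factor that recruits both coactivators, rose from 37.8 to 91.1 CPM in SAHA (log2 1.27, SE 0.06) and to 45.3 in Smarcb1-RE (log2 0.26, SE 0.06). The nuclear receptor coactivator Ncoa1 rose from 14.6 to 41.0 CPM in Smarcb1-RE (log2 1.48, SE 0.08) and to 20.3 in SAHA (log2 0.47, SE 0.09). Crtc1, a CREB coactivator, fell from 38.6 to 18.8 CPM in SAHA and was not called in Smarcb1-RE (-0.04, SE 0.06, adjusted p = 0.553).

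**Figure D5:**
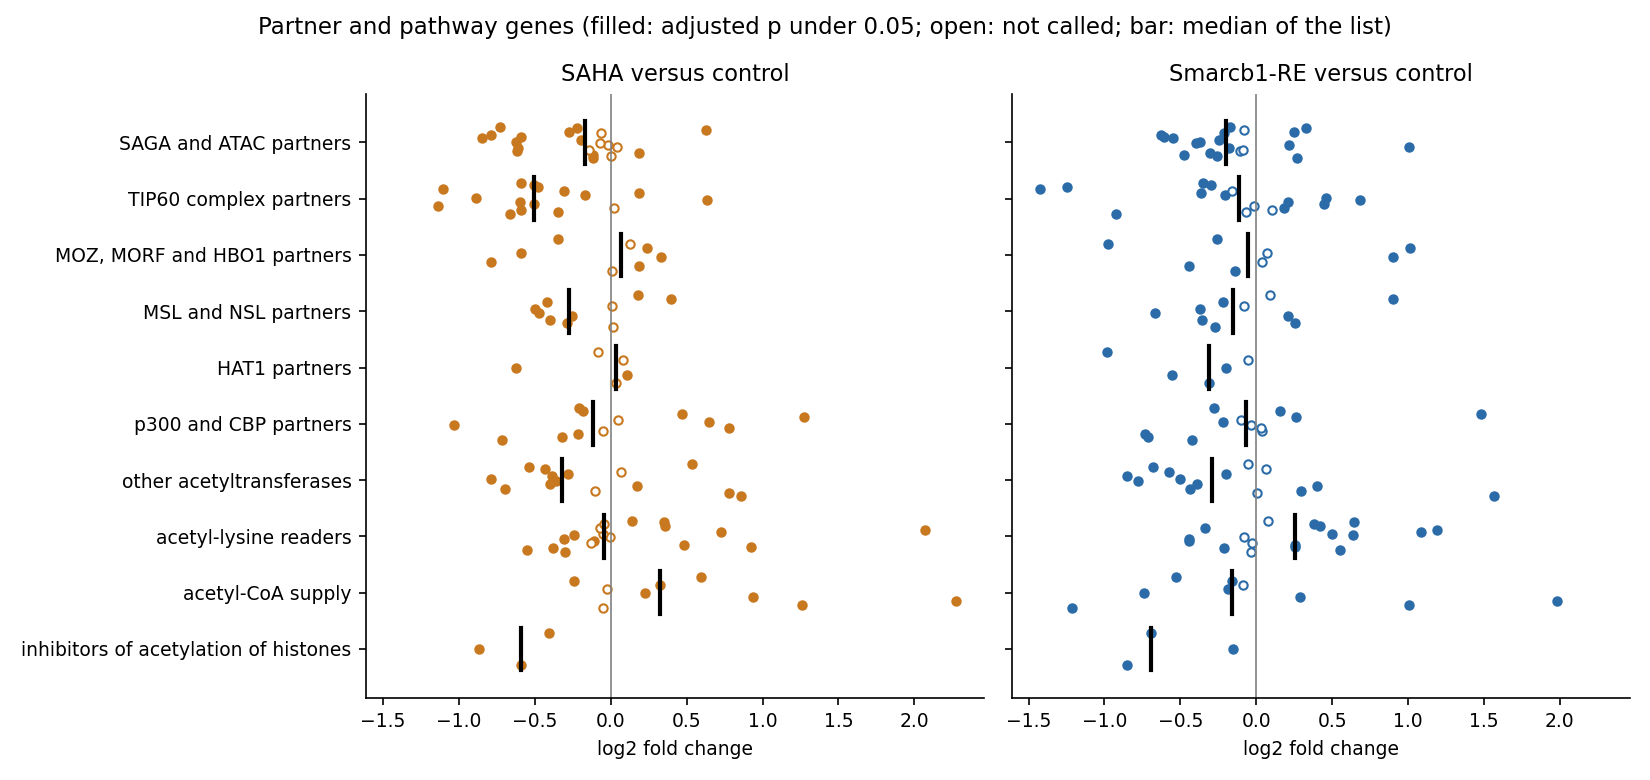
Log2 fold change against control of each tested partner or pathway gene (points), grouped by list, for SAHA and Smarcb1-RE; filled points have an adjusted p under 0.05 and black bars are the list medians. The TIP60 partners lie mostly to the left in SAHA (median -0.50) and on both sides in Smarcb1-RE (median -0.11), and the genes of acetyl-CoA supply lie mostly to the right in SAHA (median 0.32).

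Genes of acetyl-CoA supply, which provide the substrate of the enzymes, stood differently in the treated groups. In SAHA 6 of 9 were higher and 1 lower (median 0.32), where 32.6% and 34.3% of all tested genes were. In Smarcb1-RE 3 were higher and 5 lower (median -0.16), where the shares were 39.2% and 38.6%. Tested directly, 7 of the 9 were lower in Smarcb1-RE than in SAHA, where 36.8% of all tested genes were lower. Lower calls in this comparison depended on scaling: over all 115 partner and pathway genes they numbered 44, and 29 with library totals. Acly, which makes cytosolic acetyl-CoA from citrate, fell from 281 CPM in control to 121 in Smarcb1-RE (log2 -1.22, SE 0.05) and was at 271 in SAHA (-0.05, SE 0.05, adjusted p = 0.325). The citrate carrier Slc25a1 was 0.60 higher in SAHA and 0.53 lower in Smarcb1-RE than in control (log2 0.60 and -0.53, SE 0.05 for each). Acss2, which makes acetyl-CoA from acetate, rose from 2.05 to 9.97 CPM in SAHA and to 8.13 in Smarcb1-RE. Readers of acetyl-lysine had 7 of 18 higher and 6 lower in SAHA, near the shares of 32.6% and 34.3% over all tested genes. In Smarcb1-RE 10 readers were higher and 4 lower (39.2% and 38.6% of all tested genes). Of the BET family, Brd2 fell by 0.11 and by 0.44 and Brd3 fell by 0.31 and by 0.44 in SAHA and Smarcb1-RE. Set, Anp32a and Anp32b, whose products mask histone tails from acetylation, were lower in both groups, but not by equal amounts. Anp32b was at -0.87 in SAHA (SE 0.06) and only at -0.15 in Smarcb1-RE (SE 0.06, adjusted p = 0.035). Scaling by library totals moves the median of all genes in Smarcb1-RE against control from 0.01 to 0.17. Of all tested genes 34.3% were lower in SAHA and 38.6% in Smarcb1-RE. Anp32a went from 1001 CPM to 666 under SAHA and 554 after re-expression.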

How the data were processed

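Bulk RNA of 9 T15 samples was sequenced from 1 end after strand-preserving library preparation. The authors deposited 1 table of estimated counts, with a column for each library and no normalization. The submitters' processing notes name FastQC 0.11.8, MultiQC 1.7, Salmon 0.14.1, DESeq2 1.22.2 and GRCm38, without roles. Of 35288 identifiers, 99.5% were found in GENCODE M21, whose names, coordinates and lengths were used. Counts were rounded to whole numbers (45.7% of values above 0 were not whole within 0.001). edgeR 4.0.16 (R 4.3.3) was run with filterByExpr (minimum count 10), TMM factors and a quasi-likelihood fit to all 3 groups. P-values were Benjamini-Hochberg adjusted over all 13697 tested genes, and SE is the log2 fold change divided by the root of F. DESeq2 1.42.0 served as an alternative. Length and GC trends were removed as offsets from a lowess of each library's log2 CPM. Ratios of paired genes were compared by exact permutation tests. Transcripts of other genes that resemble members were searched with BLAST 2.17.0 (identity of at least 90% over at least 100 bases). Members and lists were chosen with earlier results of these data known. All 10 members are named, and of each list those taken from the 2 called genes with the largest and the 2 with the smallest fold change in each comparison with control, plus subunits needed to describe a complex. Totals of 20900477 to 24941494 counts per library and the common biological coefficient of variation of 5.24% set the precision.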

Additional observations from a re-analysis of the deposited data

How the results depend on the processing

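Every fold change of the 10 genes was recomputed under 20 alternatives and a stricter threshold, giving 210 values a comparison, of which 203 kept direction and call in SAHA against control, 178 in Smarcb1-RE against control and 187 in Smarcb1-RE against SAHA. With the length trend removed (chosen after seeing the data), 1 gene was higher in SAHA, 1 was higher in Smarcb1-RE, and 4 were lower in Smarcb1-RE than in SAHA. The sign turned in this fit for Kat6a in SAHA (-0.058), for Ep300 (-0.18) and Crebbp (-0.060) in Smarcb1-RE, and for Kat7 (-0.024) and Kat8 (0.043) between the treated groups, and with the GC trend removed for Kat7 (-0.010). With upper-quartile factors 2 genes were lower in Smarcb1-RE than in control and 0 lower than in SAHA, and the sign turned against control for Kat2b (0.15), Kat5 (0.027) and Kat6a (0.098) and against SAHA for Ep300 (0.068) and Kat8 (0.092). With library totals these counts were again 2 and 0, 6 genes were higher in Smarcb1-RE than in SAHA, 37 partner genes were lower than in control and 29 lower than in SAHA, and the sign turned for Kat2b (0.13), Kat5 (0.0069) and Kat6a (0.076) and, against SAHA, for Ep300 (0.13) and Kat8 (0.15). Requiring 10 counts in every library turned Kat2b to 0.027 in Smarcb1-RE against control and Kat8 to 0.013 against SAHA. An absolute log2 fold change of at least 0.5 left 0 higher and 2 lower in SAHA, 1 higher and 1 lower in Smarcb1-RE, and 0 lower between the treated groups, and an adjusted p under 0.01 left 1 higher in SAHA. Leaving out 1 library gave 1 to 2 genes higher in SAHA, Kat6a from -0.033 to 0.16 in SAHA, and Kat8 from -0.047 to 0.024 between the treated groups. Shares of all genes called are given for the main fit only, so the counts of other fits have no background beside them. The cause was not tested.

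Samples with the same replicate number had correlations of -0.15 to 0.19, and those with different numbers -0.18 to 0.20, so no pairing by number was seen. With 3 libraries a group this check cannot exclude that equal numbers mark a shared batch, and the labels name none. A fit with the replicate block left 2 genes higher and 7 lower in SAHA and 3 higher and 5 lower in Smarcb1-RE. With 3 libraries a group, ratios within a library cannot pass p = 0.1 by permutation, and which control treatment the control cells received limits the comparison with Smarcb1-RE.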

Other observations

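Of 14 other acetyltransferase genes, some of whose products act on N-termini, tubulin or cohesin, 4 were higher and 8 lower in SAHA (median log2 fold change -0.32). Among all tested genes 32.6% were higher and 34.3% lower. In Smarcb1-RE 3 of the 14 were higher and 8 lower (median -0.29), where the shares over all genes were 39.2% and 38.6%. Atat1, the tubulin acetyltransferase, rose from 3.71 CPM in control to 6.74 in SAHA (log2 0.86, SE 0.15) and 10.96 in Smarcb1-RE (log2 1.56, SE 0.14). Esco1, which acetylates cohesin, was 0.18 and 0.40 higher (SE 0.05 for each). Naa10, the catalytic subunit of an N-terminal acetyltransferase, went from 168 CPM to 129 under SAHA and 93.2 after re-expression, and Elp3, the catalytic subunit of Elongator, from 114 to 70.2 and 84.0. Atf2 was 0.78 higher in SAHA (SE 0.04) and at 0.00 in Smarcb1-RE (SE 0.04, edgeR adjusted p = 0.942).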
